A study of Mus musculus with 22 samples.

Results

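The nuclear-encoded subunits of the mitochondrial respiratory chain and of ATP synthase were followed in mouse hindbrain and in ribosome-bound RNA drawn from it. Members were taken by gene symbol: those that begin with Nduf followed by a, b, c, s or v and a number (complex I, assembly factors left out), with Uqcr (complex III), with Cox and a number from 4 to 8 (complex IV), or with Atp5 (complex V, ATP synthase). This gave 76 of the 12596 genes in the table: 37 for complex I, 8 for complex III, 14 for complex IV and 17 for complex V. Each of the 76 had at least 10 reads in all 22 libraries, and the lowest count of any member in any library was 36 reads. The symbol does not match the biology in every case. Ndufa4 and Ndufa4l2 carry complex I names but are known as complex IV proteins, and Atp5s and Atp5sl are not structural subunits. A further 9 RefSeq protein-coding genes fit the symbol pattern, of which 3 stand in the table under other symbols and the other 6 were not analysed here.

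The animals came from a cross of Th-cre with Slc6a2-eGFP/Rpl10a mice on a C57Bl/6 background. The second transgene uses the noradrenaline transporter gene Slc6a2 to put a fluorescent tag on a ribosomal protein, so that tagged ribosomes can be precipitated with the RNA they hold. The genotype label of all 11 animals, controls included, is Slc6a2-eGFP/Rpl10a, and the controls were infused too: 5 animals received hTyr, human tyrosinase, and 6 received the fluorescent protein EYFP. Each animal gave an immunoprecipitated library (IP, labelled noradrenergic) and a library of the RNA before precipitation (input, labelled total hindbrain), so the 4 groups are EYFP IP, EYFP input, hTyr IP and hTyr input. Ages, sexes and intervals after infusion are not given in the sources used here.

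In the respiratory chain, electrons from NADH enter complex I, pass by ubiquinone to complex III and by cytochrome c to complex IV, which reduces oxygen. Complexes I, III and IV pump protons across the inner mitochondrial membrane, and ATP synthase uses the return of these protons to make ATP. A few hydrophobic subunits of complexes I, III, IV and V are encoded by mitochondrial DNA. All others come from nuclear genes, are made in the cytosol and are imported. Neurons that fire tonically, such as those of the locus coeruleus, depend heavily on this supply of ATP.

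The totals per library lay between 12654489 and 25100142 reads, counting only reads of genes in the table. The depth limits counting error only, since the reads carry no molecular identifiers. Of 15 noradrenergic markers, 12 were higher in IP in EYFP animals and 13 in hTyr animals. In each treatment 2 were lower, Hoxb5 (-0.40 in EYFP and -0.38 in hTyr animals on the log2 scale) and Ebf3 (-0.27 and -0.29). The IP libraries also held much RNA of other cells. The summed level of 10 oligodendrocyte markers ranged from 6381 to 7899 CPM (reads scaled to the size of the library) in EYFP IP against 6866 to 8971 in EYFP input, and from 6326 to 8729 in hTyr IP against 7926 to 9477 in hTyr input. The summed noradrenergic markers ranged from 856 to 1581 CPM in EYFP IP against 361 to 431 in EYFP input, and from 974 to 2478 CPM in hTyr IP against 375 to 440 in hTyr input. No marker of any list was at 0 reads in any library. In bulk libraries such as these, fewer cells of a type and less RNA per cell cannot be told apart.

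The members lie on many chromosomes, and promoters are shown for a few of them, since some rise together in IP and others do not. Coordinates are those of RefSeq on GRCm38.p6. Uqcrc1 and Atp5b are among the members that rose in IP in both treatments, while Uqcrh and Atp5g1 did not pass the test in EYFP animals. The last 120 bases before the start used in the RefSeq promoter table are printed 5′ to 3′ on the strand of the gene, with capitals for the motifs searched, which were CCAAT, the GC box GGGCGG, the ETS motif CCGGAAGT, the NRF1 motif GCGCATGCG and the YY1 motif AAGATGGC, on both strands. For Atp5g1 that start lies inside the annotated gene, so 63 of the 120 bases are within the span of the gene itself.
Uqcrc1 (core subunit of complex III, chr9:108936528-108936647, plus strand): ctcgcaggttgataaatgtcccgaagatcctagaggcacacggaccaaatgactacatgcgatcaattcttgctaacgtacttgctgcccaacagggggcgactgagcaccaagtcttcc
Uqcrh (hinge subunit of complex III, chr4:116075071-116075190, minus strand): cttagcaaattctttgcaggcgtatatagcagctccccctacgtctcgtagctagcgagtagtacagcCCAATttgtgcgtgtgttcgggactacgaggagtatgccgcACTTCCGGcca
Atp5b (catalytic beta subunit of ATP synthase, chr10:128083187-128083306, plus strand): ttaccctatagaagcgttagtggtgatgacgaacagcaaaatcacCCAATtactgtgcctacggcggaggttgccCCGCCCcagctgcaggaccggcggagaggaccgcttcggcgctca
Atp5g1 (subunit c of the ATP synthase rotor, chr11:96075632-96075751, minus strand): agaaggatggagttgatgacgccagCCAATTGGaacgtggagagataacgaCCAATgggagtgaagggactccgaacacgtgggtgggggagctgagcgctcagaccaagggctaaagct

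Uqcrc1 held no match in this window, and Uqcrh held a CCAAT box and an ETS motif on the other strand. The RefSeq table held 250 upstream bases for 64 of the 76 members and for 9578 genes of the table in all. In those 250 bases the NRF1 motif was found in 6 members (9.38%) and in 3.36% of all genes. The GC box was found in 23 members (35.9%) against 65.2% of all genes, and CCAAT in 28 members (43.8%) against 40.4%. The ETS motif was found in 3 members (4.69%, against 6.45% of all genes) and the YY1 motif in 2 (3.13%, against 2.47%). Among the 17 members with a sequence that were higher in EYFP IP, 6 held CCAAT, 6 held the GC box and 0 held the NRF1, ETS or YY1 motif. No motif of the list contains another, and in Atp5g1 a CCAAT on each strand overlap in the first run of capitals. A match here describes letters only.

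Levels differed widely within each complex. On the scale of log2 CPM per kilobase of transcript, Cox4i1, the main isoform of the large nuclear subunit of complex IV, had the highest mean of all members in every group (10.51 in EYFP IP, 10.50 in EYFP input, 10.46 in hTyr IP and 10.62 in hTyr input). In EYFP IP it was followed by Atp5b at 10.23, Cox6c at 9.96, Cox6a1 at 9.92 and Cox8a at 9.91. The lowest places in EYFP IP went to isoforms better known from muscle, testis or vessels: Cox7a1 at 3.70, Ndufa4l2 at 3.36, Cox6b2 at 3.18 and Cox6a2 at 3.12. Of the genes for subunit c of ATP synthase, Atp5g3 stood at 9.27, Atp5g2 at 6.27 and Atp5g1 at 4.49 per kilobase in EYFP IP. The value of Atp5g1 rests on an annotated transcript of 4715 bases. These are levels set by annotated lengths, and reads shared with pseudogenes or near-identical copies may be placed differently for each gene, since the treatment of such reads is not given in the sources used here.

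The comparison of IP with input asks how the members stand among ribosome-bound RNA relative to total hindbrain RNA. On the deposited values of EYFP animals, core subunits of complexes I and III and most of the ATP synthase catalytic head rose in IP. Most small subunits and all 14 members with complex IV symbols did not. Of the 76 members, 22 were higher in IP (28.5% of all genes tested were called higher) and 2 were lower (28.1% of all genes), and 52 did not pass the threshold of 0.05 for the adjusted p (limma, Benjamini-Hochberg over all genes). The share of members called higher, 28.9%, was thus near that of all genes, and the share called lower, 2.63%, was below it. By complex, 15 of 37 members rose in complex I, 3 of 8 in complex III, 0 of 14 in complex IV and 4 of 17 in complex V. The median log2 difference, IP minus input, was 0.15 in complex I, 0.10 in complex III, -0.10 in complex IV and 0.06 in complex V, against -0.03 over all genes.

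**Figure D1:**
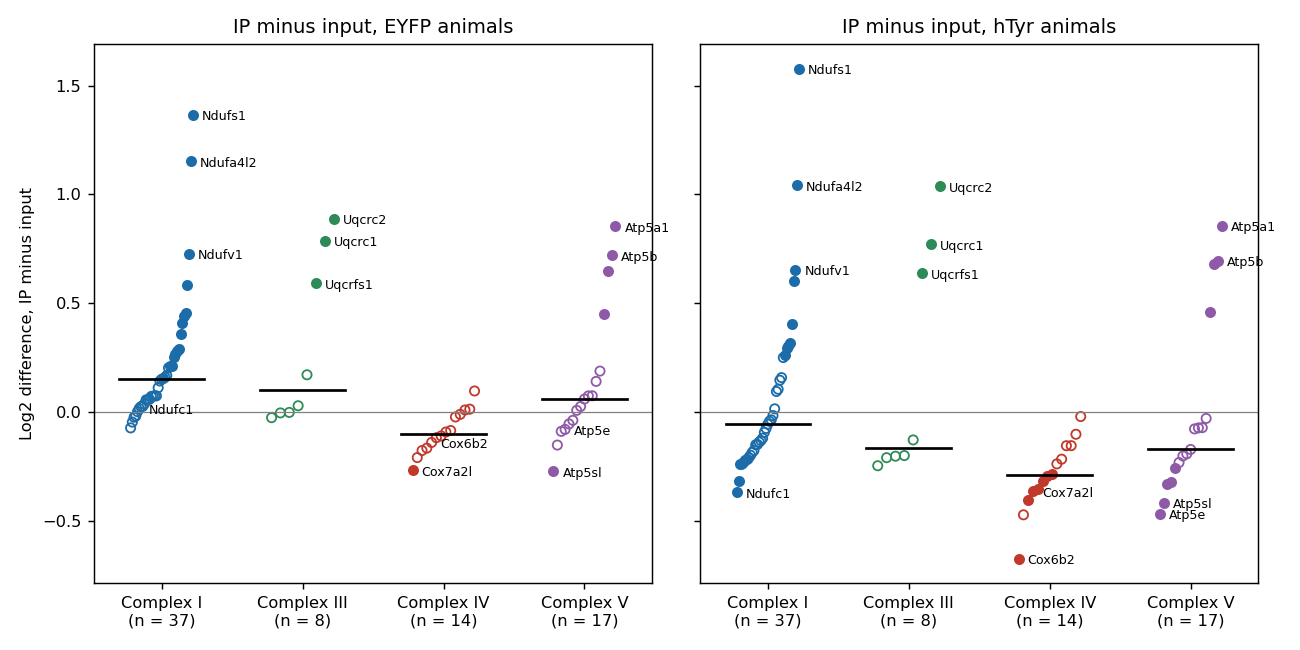
Log2 difference of IP minus input (vertical axis) for each member by complex, in EYFP animals (left) and hTyr animals (right), with filled points past the adjusted p of 0.05, open points not past it and a bar at each complex's median. Ndufs1 stands highest at 1.37 and 1.58, and the members of complex IV lie at or below 0.10 in both panels.

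The nuclear-encoded core subunits of complex I carry the flavin, the iron-sulphur clusters or the quinone site, and the 6 described here all rose in EYFP animals. Ndufs1 (chr1:63143592-63176822), the largest of them and a carrier of iron-sulphur clusters, had log2 CPM values of 7.14 to 8.06 in EYFP IP (median 7.83, n = 6) and of 6.17 to 6.61 in EYFP input (median 6.41, n = 6). The groups did not overlap, which held for 17 of the 76 members, all higher in IP. Over all genes the groups did not overlap for 16.7% in that direction and for 13.4% in the other. The mean of Ndufs1 rose by 1.37 on the log2 scale (SE 0.13, 2.58-fold, adjusted p = 1.06e-06) and was higher in IP in 6 of 6 animals. In hTyr animals its IP values were 7.73, 7.84, 7.64, 8.03 and 8.0 and its input values were 6.08, 6.25, 6.25, 6.17 and 6.59. In hTyr animals the groups did not overlap for 13 members higher in IP (20.7% of all genes) and 5 lower (16.8% of all genes). Ndufs1 was among the former, with a difference of 1.58 (SE 0.10, 2.99-fold, adjusted p = 9.43e-09).

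Ndufv1, which binds NADH and the flavin, ranged from 7.95 to 8.45 in EYFP IP (median 8.31) and from 7.34 to 7.68 in EYFP input (median 7.55). It rose by 0.73 (SE 0.09, adjusted p = 4.91e-06). In hTyr animals Ndufv1 stood at 8.01, 8.16, 8.18, 8.29 and 8.31 in IP against 7.72, 7.55, 7.30, 7.35 and 7.77 in input, a rise of 0.65 (SE 0.10, adjusted p = 3.73e-05). No IP library of Ndufv1 reached down to an input library in either treatment. The other core subunits described here rose by less in EYFP animals: Ndufs3 by 0.41, Ndufs8 by 0.36, Ndufs7 by 0.28 and Ndufv2 by 0.27. In hTyr animals 4 of the 6 passed, with Ndufv2 at 0.29 and Ndufs8 at 0.26. Ndufs3 at 0.25 (adjusted p = 0.0605) and Ndufs7 at 0.09 (adjusted p = 0.368) did not. With the animal as a replicate block, Ndufs3 in hTyr animals passed at the same difference of 0.25 (adjusted p = 0.0435). Ndufv2 lost its call in both treatments with the dependence of each library on the length and GC content of transcripts taken out, where its difference was -0.01 in EYFP and -0.09 in hTyr animals. With this dependence taken out, Ndufs3 (0.45), Ndufs7 (0.50) and Ndufs8 (0.55) passed in hTyr animals. The hTyr calls of Ndufs8 and Ndufv2 were lost with median centring, with total reads as a covariate, and without animal IP_508 or IP_509.

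The 30 members with complex I symbols outside the core moved less as a set. They are supernumerary or accessory subunits, apart from Ndufa4 and Ndufa4l2, known as complex IV proteins. In EYFP animals 8 of the 30 rose (26.7%, against 28.5% of all genes) and 0 fell (28.1% of all genes). In hTyr animals 4 rose and 4 fell, 13.3% each, against 27.4% and 27% of all genes. Besides Ndufa4l2, Ndufa9, Ndufs4 and Ndufa10 rose in both treatments. Ndufa9, a quinone-site neighbour, rose by 0.58 in EYFP and 0.60 in hTyr animals. Ndufs4, an assembly-stabilising subunit, rose by 0.45 and 0.40, and Ndufa10 by 0.29 and 0.30. The hTyr call of Ndufs4 was lost with total reads as a covariate and without animal IP_509. It was also lost with the length and GC trend removed, where the difference was 0.08 (adjusted p = 0.531). The 4 that fell in hTyr animals were Ndufc1 (-0.37, adjusted p = 0.0174), Ndufa3 (-0.32, adjusted p = 0.0456), Ndufa12 (-0.24, adjusted p = 0.0461) and Ndufb10 (-0.22, adjusted p = 0.0472). All 4 lost the call without animal IP_502 or without animal IP_510, and all but Ndufc1 also without animal IP_501. All 4 lost it with total reads as a covariate too. With the length and GC trend removed, Ndufa3 (-0.06), Ndufa12 (-0.10) and Ndufb10 (0.07) did not pass, while Ndufc1 passed at -0.59. Ndufa8 (-0.22) did not pass in hTyr animals (adjusted p = 0.0535) and passed with the replicate block (adjusted p = 0.0345).

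Ndufa4l2 had the second largest rise of all members by log2 difference, at low levels. Its log2 CPM ranged from 2.20 to 4.10 in EYFP IP (median 3.38) and from 1.80 to 2.61 in EYFP input (median 2.08), and in hTyr animals it read 3.63, 2.93, 3.06, 2.35 and 3.32 in IP against 2.44, 2.04, 1.94, 1.76 and 1.91 in input. The groups overlapped in both treatments, although each animal's IP value exceeded its own input value (6 of 6 and 5 of 5). The rise was 1.15 (SE 0.25, adjusted p = 0.00109) in EYFP and 1.04 (SE 0.23, adjusted p = 0.000972) in hTyr animals. Of 4 endothelial markers, 0 passed in EYFP animals (median difference 0.24) and 2 rose in hTyr animals (median difference 0.49), with summed levels of 26.8 to 38.6 CPM in EYFP IP against 24.8 to 35.7 in EYFP input and 21.7 to 51.5 in hTyr IP against 23.2 to 35.4 in hTyr input. Their part in the Ndufa4l2 result was not tested.

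In complex III the pattern split by role on the values as deposited. The core proteins Uqcrc1 and Uqcrc2, which form the matrix arm, and Uqcrfs1, the Rieske iron-sulphur protein, rose in both treatments. Uqcrc2 (chr7:120635189-120659523) ranged from 7.55 to 8.40 in EYFP IP (median 8.07) against 6.94 to 7.29 in EYFP input (median 7.18), and read 8.10, 8.18, 8.08, 8.40 and 8.32 in hTyr IP against 7.35, 7.22, 7.01, 7.05 and 7.27 in hTyr input. In both treatments every IP library lay above every input library. The rise was 0.89 (SE 0.12, adjusted p = 1.34e-05) in EYFP and 1.04 (SE 0.09, adjusted p = 1.3e-07) in hTyr animals. Uqcrc1 rose by 0.79 and 0.77, and Uqcrfs1 by 0.59 and 0.64. The 5 small subunits Uqcrb, Uqcrh, Uqcrq, Uqcr10 and Uqcr11 had differences from -0.03 (Uqcrh) to 0.17 (Uqcr11) in EYFP and from -0.25 (Uqcrq) to -0.13 (Uqcrb) in hTyr animals, and none of them passed. With the replicate block Uqcrq passed as lower in hTyr animals (adjusted p = 0.0438). With the trends on length and GC content taken out of each library, Uqcr11 and Uqcr10 were called higher in both treatments. The differences were 0.38 in EYFP and 0.24 in hTyr animals for Uqcr11 and 0.16 in both for Uqcr10. Uqcrb was then called lower in hTyr animals (-0.32), and Uqcrh and Uqcrq passed in neither treatment.

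**Figure D2:**
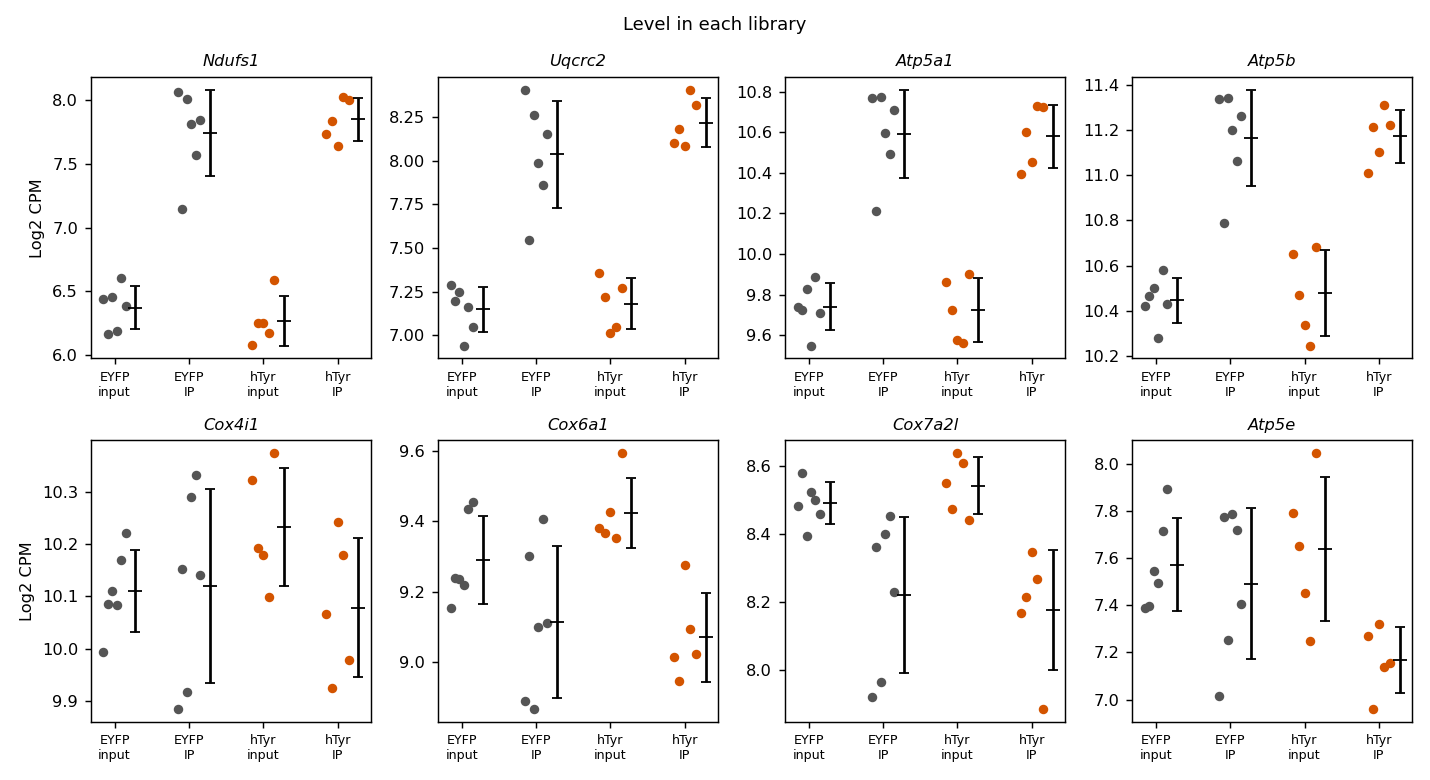
Log2 CPM (vertical axis) of 8 members in each library of the 4 groups, grey for EYFP and orange for hTyr animals, with the mean and SD beside the points. The IP libraries of Ndufs1, Uqcrc2, Atp5a1 and Atp5b lie above all input libraries of the same treatment, while those of Cox4i1 overlap with them and those of Cox6a1 and Cox7a2l lie below in hTyr animals.

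No member with a complex IV symbol rose in IP in either treatment on the values as deposited. Ndufa4l2, known as a complex IV protein but counted by symbol in complex I, rose in both treatments. Ndufa4 passed in neither. Cox4i1 (chr8:120668225-120674209) ranged from 9.88 to 10.33 in EYFP IP (median 10.15) and from 9.99 to 10.22 in EYFP input (median 10.10), and read 10.07, 9.92, 10.24, 10.18 and 9.98 in hTyr IP against 10.32, 10.19, 10.18, 10.10 and 10.37 in hTyr input. The groups overlapped in both treatments, with differences of 0.01 (adjusted p = 0.937) and -0.16 (adjusted p = 0.160). With the trends on length and GC content taken out of each library, Cox4i1 was called higher in both treatments, by 0.17 (adjusted p = 0.0221) in EYFP and 0.18 (adjusted p = 0.0324) in hTyr animals. Cox5a, a subunit facing the matrix, had the highest difference of complex IV in EYFP animals, 0.10, and did not pass.

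Cox7a2l (chr17:83501917-83514333), which takes part in joining complex III to complex IV in supercomplexes, was the 1 member of complex IV that fell in EYFP animals. It ranged from 7.92 to 8.45 in EYFP IP (median 8.29) against 8.39 to 8.58 in EYFP input (median 8.49), overlapping groups with a difference of -0.27 (SE 0.09, adjusted p = 0.0183, lower in IP in 6 of 6 animals). This call was lost without animal IP_504 and without animal IP_506, with adjusted p up to 0.0656. In hTyr animals Cox7a2l read 8.17, 8.21, 8.35, 8.27 and 7.89 in IP against 8.55, 8.47, 8.64, 8.61 and 8.44 in input. These groups did not overlap, and the difference was -0.37 (SE 0.09, 1.29-fold lower, adjusted p = 0.00253).

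In hTyr animals 7 of 14 members of complex IV fell (50%, against 27% of all genes). Besides Cox7a2l they were Cox7a2 (-0.41), Cox6a1 (-0.35), Cox8a (-0.32), Cox7c (-0.29), Cox6b1 (-0.29) and Cox6b2 (-0.68), small subunits around the catalytic core. Cox6a1, the form of subunit VIa found outside heart and skeletal muscle, read 9.01, 8.95, 9.28, 9.09 and 9.02 in hTyr IP against 9.38, 9.37, 9.43, 9.35 and 9.59 in hTyr input (adjusted p = 0.00213). In EYFP animals it ranged from 8.87 to 9.41 in IP (median 9.10) and from 9.15 to 9.46 in input (median 9.24). The hTyr groups did not overlap and the EYFP groups did. With length and GC content taken out, the hTyr difference of Cox6a1 was 0.05 and did not pass. Cox8a (0.08), Cox6b1 (-0.07) and Cox6b2 (-0.35) did not pass either, while Cox7a2l, Cox7a2 and Cox7c stayed lower. The calls of Cox8a, Cox6b1 and Cox6b2 were also lost with total reads as a covariate and without animal IP_502 or IP_510. Cox6a1 had a difference of -0.18 in EYFP animals that did not pass (adjusted p = 0.121), and it passed with the replicate block (adjusted p = 0.0329). Cox6b2, the isoform best known from testis, stood at 1.5 to 2.94 in hTyr IP, among the lowest levels of all members. Cox7a1 (-0.47) did not pass in hTyr animals (adjusted p = 0.0605) and passed with the replicate block (adjusted p = 0.0359).

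On the values as deposited, ATP synthase divided much as complex III did. The alpha, beta and gamma subunits of the catalytic head, Atp5a1, Atp5b and Atp5c1, and the stator subunit Atp5f1 rose in both treatments. Atp5a1 ranged from 10.21 to 10.77 in EYFP IP (median 10.65) and from 9.55 to 9.89 in EYFP input (median 9.73), and read 10.39, 10.60, 10.45, 10.73 and 10.73 in hTyr IP against 9.86, 9.72, 9.57, 9.56 and 9.90 in hTyr input. Atp5b ranged from 10.79 to 11.34 in EYFP IP (median 11.23) and from 10.28 to 10.58 in EYFP input (median 10.45), and read 11.01, 11.21, 11.10, 11.31 and 11.22 in hTyr IP against 10.65, 10.47, 10.34, 10.25 and 10.68 in hTyr input. For both genes the groups did not overlap in either treatment.

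The rise of Atp5a1 was 0.85 in EYFP (SE 0.10, adjusted p = 3.82e-06) and 0.86 in hTyr animals (SE 0.10, adjusted p = 2.69e-06). Atp5b rose by 0.72 and 0.69, Atp5f1 by 0.65 and 0.68, and Atp5c1 by 0.45 and 0.46. The delta and epsilon subunits, made by Atp5d and Atp5e, belong to the same rotor stalk as Atp5c1. They did not rise on the values as deposited: Atp5d had differences of 0.01 and -0.08, neither past the threshold. With the length and GC trend removed, Atp5d was called higher, by 0.22 in EYFP and 0.31 in hTyr animals, and Atp5e passed in neither. Atp5e ranged from 7.01 to 7.78 in EYFP IP (median 7.56) and from 7.39 to 7.89 in EYFP input (median 7.52), and read 7.27, 6.96, 7.32, 7.14 and 7.15 in hTyr IP against 7.79, 7.65, 7.45, 7.25 and 8.04 in hTyr input. The groups overlapped in both treatments. Its difference was -0.08 in EYFP (adjusted p = 0.614) and -0.47 in hTyr animals (SE 0.12, adjusted p = 0.00393), lower in IP in 5 of 5 hTyr animals. The hTyr call was lost with total reads as a covariate and with length and GC content taken out.

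The other members of complex V that fell in hTyr animals were Atp5l (-0.32), Atp5g1 (-0.33), Atp5j (-0.26) and Atp5sl (-0.42). Atp5l, Atp5g1 and Atp5j lost the call with total reads as a covariate. Atp5j also lost it with the length and GC trend removed (0.03) and without animal IP_501, IP_502 or IP_510. Atp5g1 also lost it without animal IP_501 or IP_510. Atp5sl also fell in EYFP animals (-0.27, adjusted p = 0.00841), which made it and Cox7a2l the 2 members lower in IP in both treatments. The peripheral-stalk subunit Atp5o, also called OSCP, had differences of 0.07 and -0.03 and did not pass. With the length and GC trend removed, Atp5o was called higher, by 0.19 in EYFP and 0.21 in hTyr animals. The ATPase inhibitory factor, Atpif1, lies outside the symbol rule. It rose in EYFP animals (0.22, adjusted p = 0.0222) and not in hTyr animals (0.13, adjusted p = 0.351). The EYFP call was lost under 6 of 18 alternatives, among them leaving out animal IP_505 or IP_507.

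In hTyr animals as a whole, 16 members were higher in IP (27.4% of all genes) and 16 were lower (27% of all genes). By complex, 9 rose and 4 fell in complex I, 3 rose and 0 fell in complex III, 0 rose and 7 fell in complex IV, and 4 rose and 5 fell in complex V. The median differences were -0.06, -0.16, -0.29 and -0.17 in complexes I, III, IV and V, against -0.04 over all genes. The 16 that rose in hTyr animals were all among the 22 that rose in EYFP animals (100% of the first list and 72.7% of the second). The lower lists shared 2 genes, which is 100% of the EYFP list and 12.5% of the hTyr list, and 0 members were called in opposite directions. Some of the 16 lower calls rest on single animals. Their number was 10 without animal IP_501, 7 without IP_502, 6 without IP_510 and 27 without IP_509. The lower calls of Cox7a2l, Cox7a2, Cox6a1, Atp5sl, Atp5l and Atp5e held whichever animal was left out. The number of lower calls was 25, beside 14 higher, with median centring of each library and 21, beside 16 higher, with quantile normalization. With total reads as a covariate 11 members were higher and 3 lower. Adding the mean of the noradrenergic markers as a covariate, a measure that parts IP from input by construction, left 2 higher in hTyr animals, Ndufs1 and Uqcrc2, and 0 in EYFP animals.

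Transcript length went with this division. The members are short, with a median annotated transcript length of 787 bases against 3069 over all genes. Of 17 members over 1500 bases, 12 rose and 1 fell in EYFP animals and 11 rose and 2 fell in hTyr animals, where 30.5% and 30.2% of all genes of that length were higher. In hTyr animals 11.8% of these members were lower, against 26.7% of all genes of that length. Of 49 members under 1000 bases, 5 rose and 0 fell in EYFP and 2 rose and 11 fell in hTyr animals, where 12.5% and 7.59% of all genes of that length were higher. The share of these short members called lower in hTyr animals, 22.4%, stood beside 27.97% of all genes of that length. Across the 76 members, Spearman's rho of length with the log2 difference was 0.42 in EYFP and 0.47 in hTyr animals, and across the 12389 genes with a known length it was 0.06 and 0.11. Genes of one library share its depth and quality and are not independent replicates, so these are descriptions with no test.

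**Figure D3:**
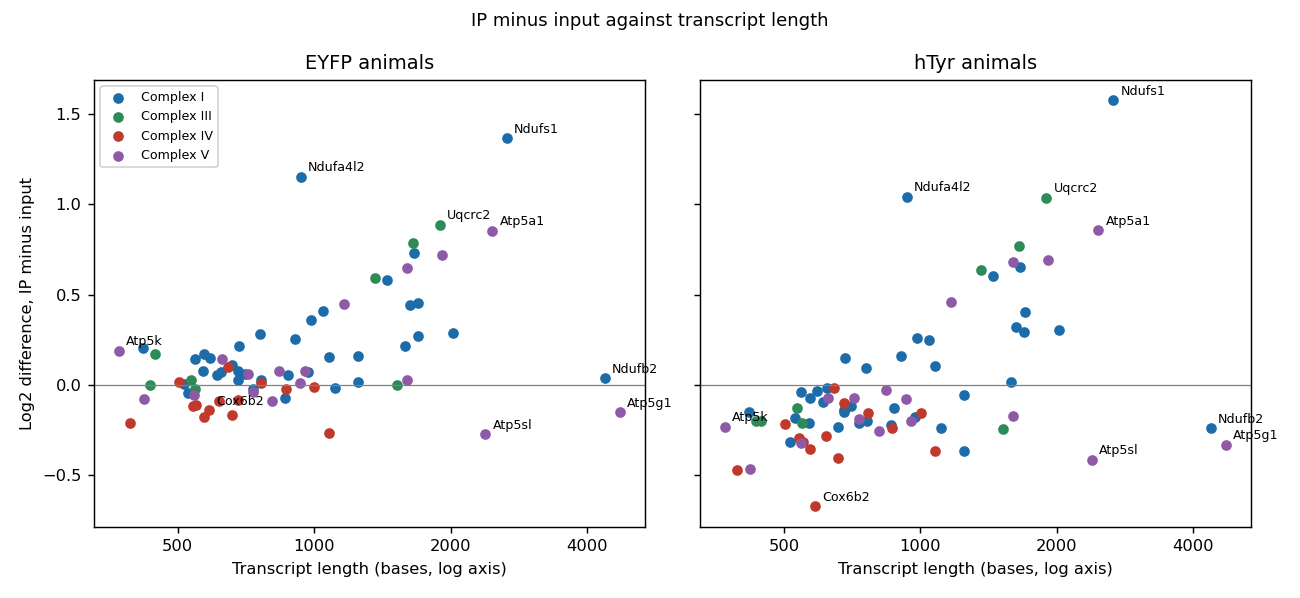
Log2 difference of IP minus input (vertical axis) against annotated transcript length in bases (horizontal log axis), 1 point per member, coloured by complex, in EYFP animals (left) and hTyr animals (right). The 17 members over 1500 bases hold 12 of the 22 rises in EYFP and 11 of the 16 in hTyr animals.

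Removing each library's trend on length and GC content left more members above input. It gave 38 higher (27.6% of all genes) and 5 lower (29.2% of all genes) in EYFP animals, and 28 higher (26.6% of all genes) and 13 lower (27.5% of all genes) in hTyr animals. In complex IV, Cox4i1 was then higher in both treatments, Cox7a2l, Cox7b and Cox7c were lower in both, and Cox7a2 was lower in hTyr animals. The median differences in EYFP animals became 0.22 in complex I, 0.27 in complex III, 0.0076 in complex IV and 0.13 in complex V, so that of complex IV changed sign from -0.10. The median differences in hTyr animals became 0.15 in complex I, 0.20 in complex III, -0.09 in complex IV and 0.12 in complex V, so those of complexes I, III and V changed sign. Ndufs1, Ndufv1, Uqcrc1, Uqcrc2, Uqcrfs1, Atp5a1, Atp5b, Atp5c1 and Atp5f1 stayed past the threshold in both treatments with the trend removed.

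Averaged over the genes of a complex and compared within an animal, the complexes moved as follows. In EYFP animals the difference of IP minus input in mean log2 CPM was 0.23 ± 0.16 for complex I (SD, n = 6 animals), 0.30 ± 0.17 for complex III, -0.09 ± 0.22 for complex IV and 0.15 ± 0.15 for complex V. It was above 0 in 6 of 6 animals for complexes I, III and V and in 2 of 6 for complex IV. In hTyr animals it was 0.07 ± 0.27 for complex I (SD, n = 5 animals), 0.18 ± 0.31 for complex III, -0.29 ± 0.24 for complex IV and -0.01 ± 0.25 for complex V, above 0 in 2, 4, 0 and 2 of 5 animals. The spread between hTyr animals exceeded the mean for complexes I, III and V.

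**Figure D4:**
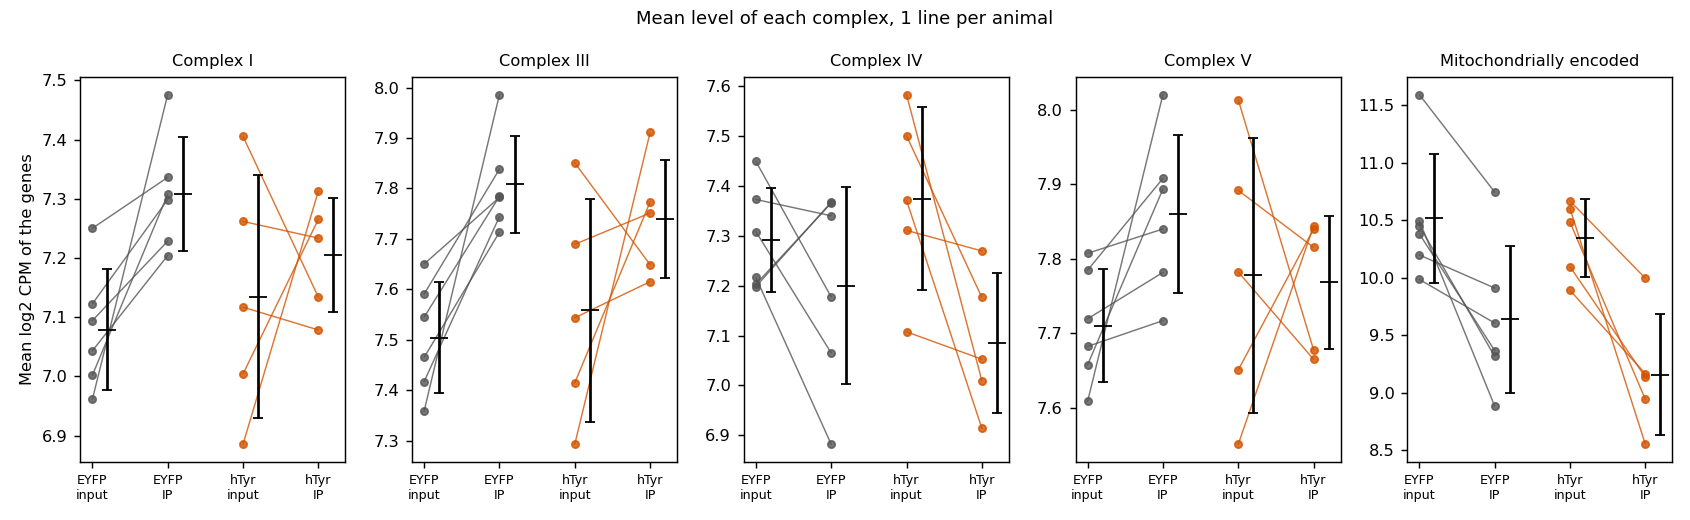
Mean log2 CPM (vertical axis, scaled per panel) over the members of each complex and over the 13 mitochondrially encoded subunits, with 1 line per animal from input to IP, EYFP in grey and hTyr in orange, and the mean and SD of each group. Complexes I, III and V rise in 6 of 6 EYFP animals, complex IV falls in 5 of 5 hTyr animals and the mitochondrially encoded genes fall in 11 of 11 animals.

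The 13 subunits encoded by mitochondrial DNA, which are transcribed and translated inside the mitochondrion, went the other way from the core nuclear subunits. Their level was lower in IP for 11 of 13 in EYFP animals (median difference -0.87) and for 13 of 13 in hTyr animals (median -1.15), and 0 were higher. COX1, the catalytic subunit of complex IV, ranged from 12.27 to 13.86 log2 CPM in EYFP IP (median 12.78) and from 13.44 to 15.15 in EYFP input (median 13.97). The 2 groups overlapped, with a difference of -1.13 (SE 0.27). The mitochondrially encoded genes took 2.64% ± 1.23 of reads in EYFP IP and 5.05% ± 2.25 in EYFP input (SD, n = 6), and 1.89% ± 0.76 in hTyr IP and 4.39% ± 1.11 in hTyr input (SD, n = 5). The nuclear members took 2.11% ± 0.10, 1.81% ± 0.14, 2.03% ± 0.11 and 1.91% ± 0.23 of reads in these 4 groups.

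Other genes of the pathway were read from fixed lists. Over all genes, 28.5% were called higher and 28.1% lower in EYFP animals, and 27.4% and 27% in hTyr animals. The tricarboxylic acid cycle, which feeds NADH and succinate to the chain, stood higher in IP almost throughout: 12 of its 13 enzymes and subunits rose and 0 fell in each treatment (median 0.47 and 0.51). Mdh2, malate dehydrogenase, rose by 0.65 and 0.68, and Cs, citrate synthase, by 0.40 and 0.46. Of the 4 subunits of complex II, the flavoprotein Sdha (0.56 and 0.61) and the iron-sulphur protein Sdhb (0.50 and 0.45) rose, while the membrane anchors Sdhc (-0.05 and -0.17) and Sdhd (0.14 and 0.04) did not pass.

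Of 14 assembly factors of complex I, 6 rose and 1 fell in EYFP and 3 rose and 3 fell in hTyr animals. Of 17 assembly factors of complex IV, 0 rose and 4 fell in EYFP and 1 rose and 6 fell in hTyr animals. These falls are 23.5% of the factors in EYFP and 35.3% in hTyr animals, against 28.1% and 27% of all genes. The 6 assembly factors of complex III had 1 rise and 1 fall, then 1 rise and 2 falls, and the 4 of ATP synthase had 1 rise and 2 falls in each treatment. Among 12 regulators of nuclear mitochondrial genes, 5 rose and 2 fell in EYFP and 4 rose and 2 fell in hTyr animals. Of these, the coactivator Ppargc1a rose by 0.34 and 0.52 and the mitochondrial transcription factor Tfam by 0.22 and 0.31. The 12 ranged from -0.48 to 0.54 in EYFP and from -0.31 to 0.55 in hTyr animals. With the length and GC trend removed, 2 were higher and 2 lower in EYFP animals, beside 27.6% and 29.2% of all genes. In hTyr animals 1 was then higher and 1 lower, beside 26.6% and 27.5% of all genes. Cyc1, the cytochrome of complex III whose symbol lies outside the rule, rose by 0.18 in EYFP animals (adjusted p = 0.0113) and had a difference of 0.06 in hTyr animals (adjusted p = 0.602). Cycs, cytochrome c, fell by 0.20 and by 0.25.

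Markers of other cells also differed between IP and input. Of 9 markers of other neurons, 7 rose in EYFP and 6 in hTyr animals (medians 0.41 and 0.48), with summed levels of 1247 to 1521 CPM in EYFP IP against 897 to 1157 in EYFP input and of 1107 to 1434 in hTyr IP against 876 to 1079 in hTyr input. Of 9 astrocyte markers, 4 rose and 1 fell in EYFP animals and 5 rose and 1 fell in hTyr animals, with summed levels of 2854 to 4145 CPM against 2393 to 2991 in EYFP and of 3132 to 3915 against 2433 to 3023 in hTyr animals. Of 10 oligodendrocyte markers, 5 fell in each treatment and 2 rose in EYFP and 3 in hTyr animals. Of 9 microglial markers, 0 rose and 1 fell in EYFP animals and 2 rose and 1 fell in hTyr animals. Their summed level was 204 to 380 CPM in EYFP IP against 214 to 358 in EYFP input, and 226 to 418 in hTyr IP against 241 to 374 in hTyr input. The part of these cells in the differences of the members was not tested.

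The comparison of hTyr with EYFP in IP asks whether tyrosinase changed the ribosome-bound RNA of the members. None of the 76 passed the threshold in limma (0.0556% of all genes were called higher and 0% lower), and the lowest adjusted p was 0.681. This count was 0 under all 21 alternatives run, voom on recovered reads among them. At an unadjusted p under 0.05 there were 8 members, all lower in hTyr, which is 10.5% of members against 3.31% of all genes lower at that level. The 2 groups overlapped for all 76 members (0.389% of all genes did not overlap and were higher, and 0.262% lower). The difference was negative for 63 of 76 members, against 51.8% of all genes, with a median of -0.11 against -0.01 over all genes. By complex it was negative for 32 of 37 members of complex I, 5 of 8 of complex III, 14 of 14 of complex IV and 12 of 17 of complex V.

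**Figure D5:**
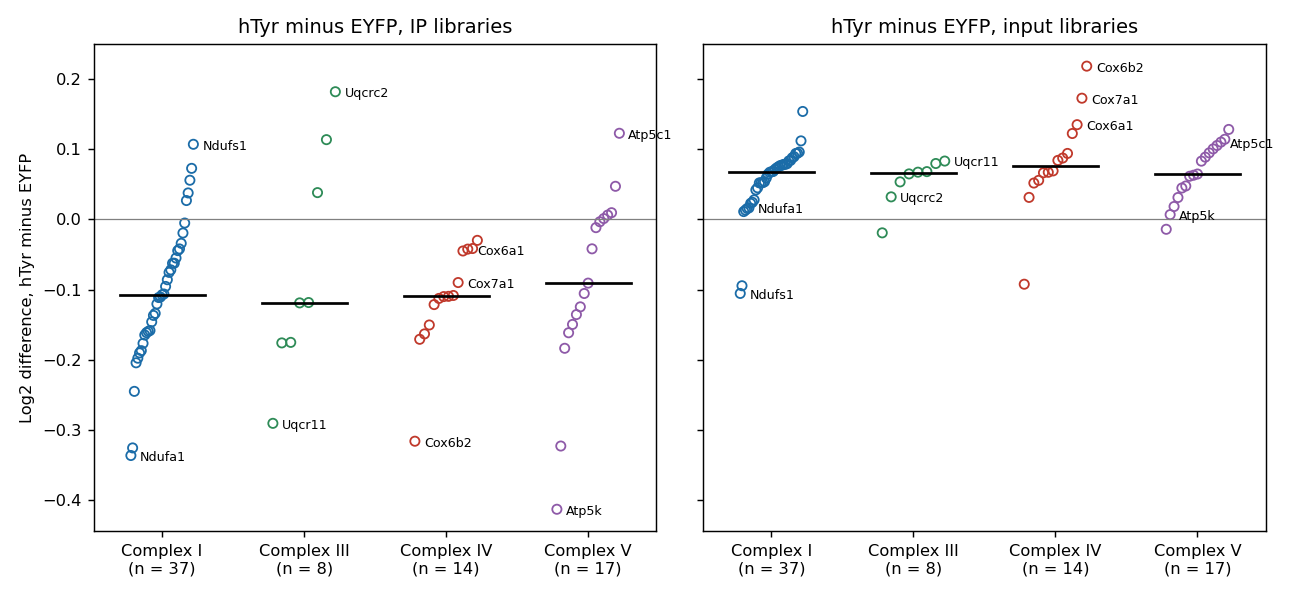
Log2 difference of hTyr minus EYFP (vertical axis) for each member by complex, in IP libraries (left) and input libraries (right), with a bar at each complex's median. All points are open, since none passed an adjusted p of 0.05, and 63 of 76 lie below 0 in IP while 71 of 76 lie above 0 in input.

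The 8 members at an unadjusted p under 0.05 were Atp5k (-0.41), Ndufa1 (-0.34), Ndufc1 (-0.33), Atp5e (-0.32), Uqcr11 (-0.29), Ndufa3 (-0.25), Ndufb6 (-0.19) and Atp5l (-0.18), all small subunits. Ndufa1, a single-span membrane subunit of complex I, read 6.21, 5.94, 6.26, 6.33 and 6.18 log2 CPM in hTyr IP and ranged from 6.20 to 6.84 in EYFP IP (median 6.50). The groups overlapped, and the difference of -0.34 (SE 0.11) had an adjusted p of 0.681. Atp5k, a membrane subunit known for its place where ATP synthase dimers meet, read 6.73, 6.19, 6.58, 6.62 and 6.24 in hTyr IP and ranged from 6.55 to 7.33 in EYFP IP (median 6.81). These groups overlapped too (SE 0.13, adjusted p = 0.683). The largest positive differences in IP were those of Uqcrc2 (0.18), Atp5c1 (0.12), Uqcrfs1 (0.11) and Ndufs1 (0.11), none past the threshold.

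The lower median in IP was smaller with the length and GC trend removed, -0.04 over the 76 members. Length and the log2 difference of hTyr minus EYFP in IP had a Spearman's rho of 0.47 across the members and -0.04 across all genes with a known length. The 13 mitochondrially encoded genes were all lower in hTyr IP, with a median of -0.51, and 0 passed. The TCA cycle enzymes had a median of 0.05 and complex II of 0.01. The noradrenergic markers had a median of 0.21 and 0 of 15 passed.

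In input, which reads the tissue as a whole, 0 members passed (0% of all genes were called higher and 0.00794% lower), the lowest adjusted p was 0.990 and 0 members had an unadjusted p under 0.05 (0.992% of all genes higher and 2.04% lower at that level). This too was 0 under all 21 alternatives, voom among them. The sign was mostly the reverse of that in IP: 71 of 76 members were positive, against 46.4% of all genes, with a median of 0.07 against -0.01 over all genes, and of 0.02 with the length and GC trend removed. The differences ranged from -0.11 (Ndufs1) to 0.22 (Cox6b2). The single gene called in input over all genes was a noradrenergic marker, the noradrenaline transporter gene Slc6a2, 1 of the 15 on that list. Its level was 2.12 ± 0.17 log2 CPM in hTyr input (SD, n = 5) and 3.03 ± 0.19 in EYFP input (SD, n = 6), and the groups did not overlap. The limma difference of hTyr minus EYFP was -0.91 (SE 0.13, adjusted p = 0.0339), and its part in the values of the members was not tested.

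Whether the treatment difference itself differed between IP and input was tested as an interaction over the 22 libraries. The interaction passed for 0 members (0.00794% of all genes higher, 0% lower), with a lowest adjusted p of 0.996, and for 0 under all 22 alternatives, voom and the replicate block included. At an unadjusted p under 0.05 there were 3 members, Ndufc1, Ndufb6 and Atp5l, all negative (1.12% of all genes were negative at that level). The estimate was negative for 67 of 76 members, against 49.3% of all genes, with a median of -0.18, and of -0.06 with the trend removed. Ndufs1 had the highest estimate, 0.21, and Cox6b2 the lowest, -0.54. The longer list of lower members in hTyr animals than in EYFP animals is thus not shown to differ between the treatments for any member.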

How the data were processed

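RNA-seq was made from 22 libraries of 11 animals. What the authors deposited is 1 table with log2 values for 12596 genes. STAR, featureCounts and the build mm10 are named in the submitters' processing notes, while versions, the filter and the normalization are not given in the sources used here. Per the values, the deposited log2 numbers are CPM with an average prior of 2 reads: 100% came back as whole reads within 0.05 reads, which gives the totals printed. Groups came from the labels.

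Genes were tested with limma 3.58.1 in R 4.3.3 (trended eBayes on the deposited log2 values, Benjamini-Hochberg over all genes, threshold 0.05), each comparison within its own groups and the interaction over all libraries. In simulated data for IP against input in EYFP, with 200 of 12596 genes changed, 100% of 2-fold changes were recovered and 4.76% of calls were false. For hTyr against EYFP in IP, 99% of 2-fold changes were recovered. Only 2-fold and 4-fold changes were simulated, in libraries drawn independently of each other. Recovery of smaller differences, such as those of the members between treatments, was not tested.

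IP and input of an animal are paired by the animal number in the titles. Deviations from group means correlated at 0.448 within animals (range 0.279 to 0.626) and at -0.096 between animals of a treatment. The block is therefore given where it changes a call of a named gene. Members and lists were chosen with earlier results of these data known. Named genes are core and isoform genes whatever their values, any member past the threshold for treatment, and in each complex the 3 largest rises and falls in each fraction comparison and the 3 largest treatment differences, and 1 gene of the rule is not reported here by itself. Single genes outside this rule were chosen after their values were seen. Lengths and GC content came from GENCODE M21 (98.4% of genes) and promoters from RefSeq. Alternatives were other normalizations, filter, pseudocount, voom, covariates, trend removal, one fit, the block and leaving out each animal. P-values measure the spread between the animals' libraries within groups. Outside the block, IP and input of an animal were treated as independent. Figures used Python 3.11.15.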

Additional observations from a re-analysis of the deposited data

Results flagged for a closer look

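Within groups of 5 or 6 libraries, 236 sets of values of named members and summary measures were searched for a single library far from the others, by Dixon's criterion. It marked 6, and chance alone would mark about 11.8. Atp5c1 had 1 high library in hTyr IP (9.03, next 8.73) and 1 low library in EYFP input (7.91, next 8.18). Ndufs4 had a high library in EYFP IP (7.34, next 7.10), Cox7a1 a low one in EYFP IP (1.18, next 2.29) and Ndufc1 a low one in EYFP input (6.63, next 6.76). The mean of the 13 mitochondrially encoded genes was high in 1 EYFP input library, that of animal IP_507 (11.59, next 10.50).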

How the results depend on the processing

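Of the counts of called members and the complex medians, 563 alternative values were classed as kept and 31 as moved. A count was kept when its ratio to the main count stayed within a set limit. A median was kept when it shifted by less than the SD between animals. A kept median could thus change sign, as that of complex IV in EYFP animals did with the length and GC trend removed. The treatment comparisons and the interaction kept 0 calls among members under each alternative run. In EYFP animals, the noradrenergic score as a covariate gave 0 higher and 0 lower, with medians of 0.47, 0.61, 0.63 and 0.49 in complexes I, III, IV and V. That score separates IP from input by construction. Removing the length and GC trend gave 38 higher and 5 lower, and 42 and 7 together with the replicate block. Leaving out each animal gave 18 to 22 higher and 1 to 3 lower.

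In hTyr animals, median centring gave 25 lower, total reads as a covariate 3 lower, and the noradrenergic score 2 higher and 0 lower. Removing the length and GC trend gave 28 higher, and 30 with the replicate block, with medians of 0.15, 0.20, -0.089 and 0.12 in complexes I, III, IV and V under both. Leaving out each animal gave 13 to 18 higher, 6 to 27 lower and a complex V median of -0.24 to -0.024. The cause of these shifts was not tested. Among the named genes, the replicate block alone changed only the calls given in the report, those of Cox6a1, Cox7a1, Ndufa8, Ndufs3 and Uqcrq. The other members were not compared gene by gene under the block.

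Single genes changed sign as follows. With the noradrenergic score, EYFP differences became 0.36 for Atp5sl, 0.64 for Cox7a2l, -1.75 for Ndufa4l2 and -0.062 for Uqcrc2, and hTyr differences 0.041 for Cox6b2 and -0.21 for Ndufa4l2. With the trend removed, with and without the block, EYFP differences became -0.0061 for Ndufv2 and 0.16 for Uqcr10, and with the block Ndufc1 passed at -0.16. In hTyr animals the same removal gave 0.31 for Atp5d, 0.029 for Atp5j, 0.21 for Atp5o, 0.18 for Cox4i1, 0.047 for Cox6a1, 0.082 for Cox8a, 0.074 for Ndufb10, -0.088 for Ndufv2, 0.16 for Uqcr10 and 0.24 for Uqcr11, and with the block 0.15 for Ndufa7.

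Depth limits mainly the lowest members, such as Cox7a1 and Cox6b2, whose lowest counts were 36 and 40 reads.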
